A study of Mus musculus with 25 samples.

Results

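Immediate early genes were examined in hepatocytes of C57BL/6 mice on a normal diet or on a NASH-inducing diet, NASH (non-alcoholic steatohepatitis) being a fatty liver disease with inflammation. The 10 genes were Fos, Fosb, Jun, Junb, Jund, Egr1, Ier2, Ier3, Atf3 and Dusp1, chosen by symbol, and all 10 were found among the 37085 gene symbols of the count table. The 25 libraries fell into 7 groups: 5 libraries from mice on normal diet (0 weeks on the NASH-inducing diet) and 4, 3, 4, 3, 3 and 3 libraries from mice after 1, 2, 3, 4, 5 and 6 weeks on that diet. The labels name no transgene, drug or further agent; all groups share the strain, the pentobarbital anaesthesia, the collagenase perfusion with its warm incubation, the low-speed spins and the sort by flow cytometry. The sources used here do not give the composition of either diet, the age or sex of the mice or the sorting gate. No label says that each library came from its own mouse, so a p-value here measures spread between libraries, which may be technical.

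Immediate early genes are switched on within minutes of a stimulus without the need for new protein. Growth factor, cytokine and stress signals run through MAP kinases to factors such as SRF and CREB that already sit at these genes; the proteins made then form AP-1, a dimer of Fos-type and Jun-type subunits, or act as other transcription factors, while some, such as the phosphatase Dusp1, switch the kinases off again. In liver they are known for their burst after partial hepatectomy and injury, and dissociating tissue with collagenase can induce them as well. The isolation was common to all libraries, so its share in any level below was not tested.

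The promoters of 4 of the genes are shown because their windows hold a short element read by CREB, ATF or AP-1 proteins. No link of these elements to the levels of the genes was tested. Each sequence is the 250 bases before the RefSeq start of the gene on build GRCm38.p6, read 5′ to 3′ on the gene's strand, which is another build than that of the counts. Capitals mark TGACGT (or its reverse complement ACGTCA), the core of the cAMP response element, and in Jun the letters TGACATCA, a Jun-type AP-1 site; in Dusp1 the longer capital run is the full element TGACGTCA, which contains the core on both strands.
Fos, chr12:85473640-85473889, plus strand: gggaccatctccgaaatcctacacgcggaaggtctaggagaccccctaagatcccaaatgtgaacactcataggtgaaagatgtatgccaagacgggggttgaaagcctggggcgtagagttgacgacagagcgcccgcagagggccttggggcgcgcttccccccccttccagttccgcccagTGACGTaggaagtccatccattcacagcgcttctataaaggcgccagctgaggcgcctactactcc
Jun, chr4:95052223-95052472, minus strand: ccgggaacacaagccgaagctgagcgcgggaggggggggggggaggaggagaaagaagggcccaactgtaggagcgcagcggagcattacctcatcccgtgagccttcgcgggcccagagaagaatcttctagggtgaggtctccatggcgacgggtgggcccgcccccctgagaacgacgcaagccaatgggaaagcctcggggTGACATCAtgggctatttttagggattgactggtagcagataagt
Atf3, chr1:191183334-191183583, minus strand: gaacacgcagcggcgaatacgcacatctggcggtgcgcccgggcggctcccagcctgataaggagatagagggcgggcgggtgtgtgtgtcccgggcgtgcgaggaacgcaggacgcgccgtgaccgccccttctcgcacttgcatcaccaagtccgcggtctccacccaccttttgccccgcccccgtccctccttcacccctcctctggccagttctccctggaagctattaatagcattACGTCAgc
Dusp1, chr17:26508473-26508722, minus strand: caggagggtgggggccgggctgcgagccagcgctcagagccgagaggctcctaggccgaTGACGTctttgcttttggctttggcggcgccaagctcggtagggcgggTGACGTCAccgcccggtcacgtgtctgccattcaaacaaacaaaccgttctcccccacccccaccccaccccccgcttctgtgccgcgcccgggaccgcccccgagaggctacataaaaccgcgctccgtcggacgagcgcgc
The core lay at bases -66 to -61 in Fos, -8 to -3 in Atf3 and -191 to -186 in Dusp1, counted back from the start, and the full element of Dusp1 lay at -143 to -136. The Jun site lay at -45 to -38. Of the 10 genes, 8 had a window, and 3 of these 8 held the core, against 6.47% of 32851 windows searched on both strands. TGACGTCA was in 1.55% and TGACATCA in 2.93% of all windows. The AP-1 site TGACTCA, in 4.46% of all windows, and the CArG box bound by SRF, in 1.47%, were in none of the 8. A match describes letters only, and its absence says only that the letters are not in this window.

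Libraries held 5281143 to 10015751 counts, and mitochondrial transcripts took 19.28 to 27.43% of them. The defining markers of hepatocytes were abundant in every group, with 10 of 10 detected. Markers of other liver cells were present too. Those of Kupffer, sinusoidal endothelial, stellate, and monocyte and dendritic cells were higher late in the diet. The summed median of the cholangiocyte markers was 44.07 CPM on normal diet and 44.9 CPM at week 5, that of the lymphocyte markers 2.191 and 1.75 CPM, that of the erythroid markers 22.76 and 26.74 CPM, and that of the neutrophil markers 1.207 and 4.277 CPM. The mean log2 CPM (each count relative to the library total, scaled for composition) of 30 markers of Kupffer cells, sinusoidal endothelial cells and stellate cells was 3.451 ± 0.7475 (SD, n = 5) on normal diet, 6.006 ± 0.1516 (n = 3) at week 5 and 5.718 ± 0.191 (n = 3) at week 6. The week 5 libraries did not overlap the normal-diet libraries, which ranged from 2.507 to 4.294; libraries 5 and 1 of the normal diet were the lowest. Ly6g, a defining marker of neutrophils, was at 0 in every group. In bulk samples like these, more cells of a type and more RNA per cell cannot be told apart. Replicates 1 of week 5 and 3 of the normal diet stood high for the immediate early genes, and both are named where a result rests on them.

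Fos and Fosb encode the Fos-type subunits, which cannot pair with themselves and need a Jun partner. Fos stood at 33.36, 51.73, 87.52, 33.39 and 97.95 CPM in the 5 normal-diet libraries, and at 233.3, 109.8 and 94.08 CPM at week 5. One week 5 library was far above the rest and the lowest lay within the normal-diet range. On the log2 scale Fos rose by 1.27 ± 0.48 (SE) at week 5, a 2.407-fold change (edgeR quasi-likelihood test with Benjamini-Hochberg adjustment over 11869 genes, adjusted p = 0.0445). Without replicate 1 of week 5 the change was 0.74 ± 0.52 (adjusted p = 0.310). The week 5 call was kept in 20 of 35 other settings of scaling, filter, model or libraries left out. At week 6 the libraries stood at 66.76, 58.48 and 141.4 CPM, and the change of 0.55 ± 0.48 did not pass the test (adjusted p = 0.438).

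Fosb had the widest range of the 10 genes, 31.17-fold between its lowest and highest library. Its normal-diet libraries stood at 2.357, 8.105, 16.66, 2.289 and 9.861 CPM and its week 5 libraries at 67.57, 30.81 and 24.35 CPM. All 3 week 5 libraries lay above all 5 on normal diet. The log2 change was 2.39 ± 0.71, or 5.25-fold (adjusted p = 0.0129), and 1.81 ± 0.78 without replicate 1 of week 5 (adjusted p = 0.0928). At week 4 Fosb stood at 42.9, 18.02 and 4.164 CPM, a 10.3-fold spread inside 1 group, and its change of 1.48 ± 0.72 did not pass (adjusted p = 0.225).

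Jun, Junb and Jund encode the Jun-type subunits; Jun and Junb are inducible, and Jund is the member known for steadier expression. Jun stood at 169.9, 158.1, 300.9, 141.6 and 232.9 CPM on normal diet and at 395.3, 326.1 and 292.1 CPM at week 5. Only replicate 3 of the normal diet reached the week 5 range. Jun rose by 0.75 ± 0.25 at week 5, or 1.684-fold (adjusted p = 0.0209), and the change was 0.61 ± 0.28 without replicate 1 of week 5 (adjusted p = 0.109).

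Junb stood at 93.01, 99.5, 149.2, 70.95 and 107.4 CPM on normal diet, at 222.3, 162.5 and 170.2 CPM at week 5 and at 126.9, 94.4 and 150.4 CPM at week 6. The week 5 libraries lay above every library of the normal diet and of week 6. Junb rose by 0.83 ± 0.24 at week 5, or 1.78-fold (adjusted p = 0.00897), and the change was 0.67 ± 0.27 without replicate 1 of week 5 (adjusted p = 0.0642). Its week 6 change was 0.25 ± 0.24 (adjusted p = 0.477). Along weeks 1 to 6 Junb rose by 0.12 ± 0.04 per week on the log2 scale (adjusted p = 0.0434). This trend did not pass without replicate 1 of week 5 (adjusted p = 0.0820), without normal-diet libraries 1 and 5 (0.0541) or with the score of other liver cells as a term (0.856), and it kept its call in 18 of 35 settings.

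Jund had the smallest spread of the 10 genes within groups. Its week means ran only from 71.02 ± 13.08 CPM (SD, n = 4) at week 3 to 95.91 ± 14.34 CPM (n = 3) at week 5. The normal-diet mean of 82 ± 14.32 CPM (n = 5) lay between these and its libraries overlapped those of every week. Neither week 5 (0.23 ± 0.15, adjusted p = 0.262) nor week 6 (0.15 ± 0.15, adjusted p = 0.488) passed the test against normal diet. The trend over weeks 1 to 6 did, at 0.08 ± 0.03 per week (adjusted p = 0.0321), but not without replicate 1 of week 5 (adjusted p = 0.0691) or with the score as a term (0.01 per week, adjusted p = 0.972). It kept its call in 29 of 35 settings. Junb and Jun overlap other annotated genes on the opposite strand, Prdx2 (19636 counts over all libraries, against 21371 for Junb) and the antisense RNA Junos (142 counts, against 42776 for Jun). The sources used here do not say whether reads were counted by strand, so reads of such partners cannot be told apart.

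**Figure D1:**
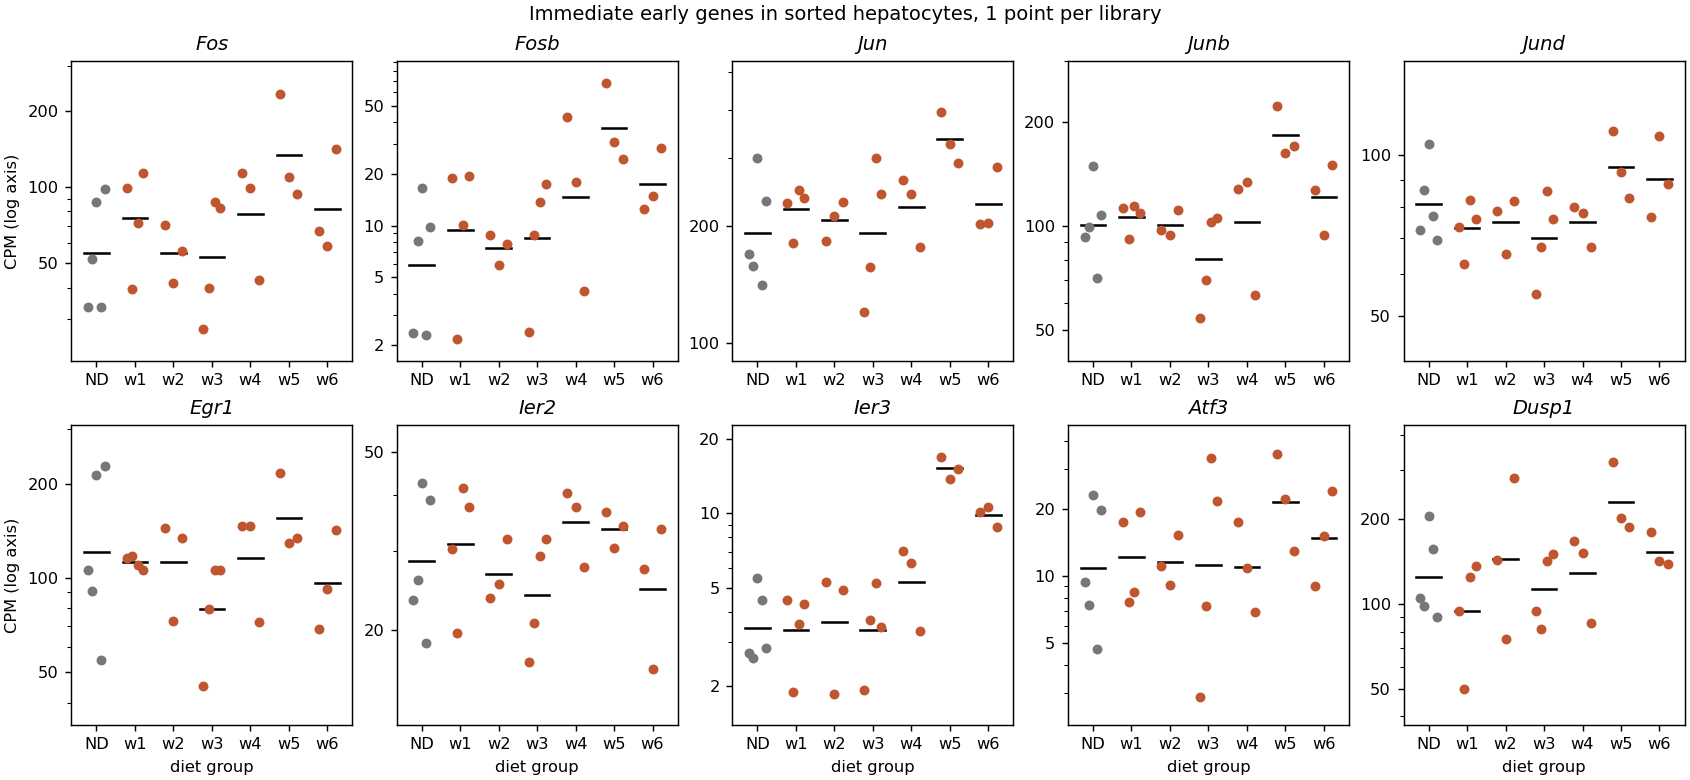
CPM of each of the 10 immediate early genes (log axis) in each library, by diet group (ND, normal diet; w1 to w6, weeks on the NASH-inducing diet); points are libraries and bars are geometric means. Ier3 at week 5 (13.8 to 16.92 CPM) lies above all other groups, while Fos at week 5 overlaps the normal-diet libraries.

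Egr1 encodes a zinc finger transcription factor that is switched on through SRF. It stood at 106.1, 90.88, 214.1, 54.79 and 228.3 CPM on normal diet, a 4.167-fold spread, and at 217, 129.3 and 134.2 CPM at week 5. The highest Egr1 value of all 25 libraries was on normal diet, and the libraries of every week overlapped those on normal diet. Its changes were 0.21 ± 0.40 at week 5 (adjusted p = 0.722) and -0.46 ± 0.41 at week 6 (adjusted p = 0.446). Without replicate 1 of week 5, the week 5 change was -0.08 ± 0.46 (adjusted p = 0.914).

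Ier2, a small nuclear immediate early protein, ranged from 16.38 to 42.51 CPM over all libraries, and both its week 4 mean of 35.27 ± 6.785 CPM (n = 3) and its week 3 mean of 24.72 ± 7.038 CPM (n = 4) lay within 1 SD of the normal-diet mean of 29.9 ± 10.32 CPM (n = 5). Its change was 0.18 ± 0.27 at week 5 (adjusted p = 0.646) and -0.21 ± 0.28 at week 6 (adjusted p = 0.629). The week 6 value turned to 0.11 when libraries were scaled by total counts alone.

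Ier3, a stress-induced protein that acts on cell survival and on MAP kinase signalling, was the only one of the 10 called at both week 5 and week 6. It stood at 2.72, 2.587, 5.45, 4.443 and 2.849 CPM on normal diet, at 16.92, 13.8 and 15.21 CPM at week 5 and at 10.15, 10.63 and 8.821 CPM at week 6. Each of these libraries rests on few reads, from 13 to 35 counts on normal diet and 60 to 174 at weeks 5 and 6. Every week 5 and week 6 library lay above every normal-diet library, and week 5 lay above week 6 without overlap, a difference that was not tested.

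Ier3 rose by 2.06 ± 0.30 at week 5, or 4.162-fold (adjusted p = 2.3e-05), and by 1.42 ± 0.31 at week 6, or 2.684-fold (adjusted p = 0.00144). At week 4 its libraries stood at 7.077, 6.301 and 3.332 CPM, and the change of 0.61 ± 0.32 did not pass the test (adjusted p = 0.260). In weeks 1 to 3 the means stayed between 3.549 ± 1.179 CPM (n = 4) and 4.016 ± 1.882 CPM (n = 3), beside 3.61 ± 1.275 CPM (n = 5) on normal diet. The trend over weeks 1 to 6 was 0.39 ± 0.06 per week (adjusted p = 1.9e-05). Without replicate 1 of week 5 the week 5 change was 1.97 ± 0.34 (adjusted p = 1.9e-04).

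Atf3 encodes a stress-induced factor of the ATF and CREB family that can pair with Jun proteins. Its libraries differed most inside week 3, at 2.881, 7.375, 33.69 and 21.6 CPM, an 11.69-fold spread. At week 5 it stood at 35.1, 22.01 and 12.95 CPM, against 9.428, 7.415, 23.05, 4.712 and 19.72 CPM on normal diet, so the groups overlapped. The change of 0.88 ± 0.59 did not pass the test (adjusted p = 0.272).

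Dusp1, the phosphatase that switches off MAP kinases, stood at 105, 98.81, 206, 157.1 and 90.28 CPM on normal diet and at 320.1, 202.4 and 187.5 CPM at week 5. Replicate 3 of the normal diet overlapped the lower week 5 libraries, and replicate 3 of week 2 reached 280.6 CPM. The week 5 change of 0.85 ± 0.38 missed the threshold in edgeR (adjusted p = 0.0890). It passed with DESeq2 (0.90, adjusted p = 0.0366) and, in edgeR, without replicate 3 of the normal diet (1.07, adjusted p = 0.0382). In edgeR it was 0.56 ± 0.42 without replicate 1 of week 5 (adjusted p = 0.349). It was 0.62 ± 0.43 without normal-diet libraries 1 and 5 (adjusted p = 0.319) and -0.43 ± 0.68 with the score of other liver cells as a term. Dusp1 overlaps Ergic1 on the opposite strand (15212 counts, against 27706 for Dusp1).

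Counted over the 10 genes, none was called higher or lower in week 1, 2, 3 or 4 against normal diet. Of all 11869 tested genes, 0.219%, 0.227%, 0.244% and 5.44% were called higher in these weeks. More genes were called lower than higher in weeks 1 to 3 (116 lower in week 1), and fewer in week 4 (339 lower). No gene of the 10 reached an unadjusted p under 0.05 in edgeR in these weeks, and the smallest adjusted p was 0.225. Changes ran from -0.72 to 1.48 on the log2 scale, and none passed in the 1400 refitted values under other settings, DESeq2 and limma included. At week 5, 5 of 10 were called higher (Fos, Fosb, Jun, Junb and Ier3) against 19.1% of all genes, and none was called lower. All 10 changes were positive, with a median of 0.84 against -0.05 over all genes. All 3 week 5 libraries lay above all normal-diet libraries for 3 of 10 genes (Fosb, Junb and Ier3), against 20.1% of all genes. At week 6 only Ier3 was called, 1 of 10 against 16.3%, and only Ier3 lay above all normal-diet libraries, against 16.1%; the median change was 0.24. Over weeks 1 to 6 the trend was called higher for 3 of 10 (Junb, Jund and Ier3), against 18.9% of all genes called higher. None of the 10 was called lower in it, and 4020 of 11869 genes were called in either direction. Any difference among the 7 groups was called for 2 of 10 (Junb and Ier3) against 29.9%. With only 10 genes, the shares at week 6, in the trend and over the 7 groups were close to the background. No difference from it was tested.

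**Figure D2:**
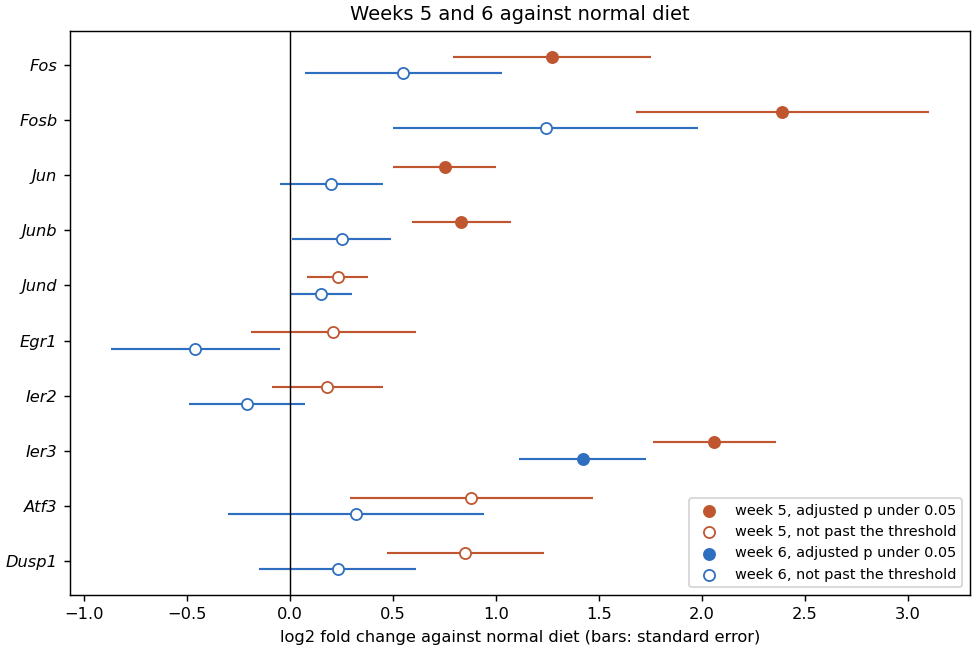
Log2 fold change against normal diet at week 5 (orange) and week 6 (blue) for each gene, with the standard error as bars; filled points passed an adjusted p of 0.05. At week 5, 5 of 10 passed and at week 6 only Ier3 (1.42 ± 0.31).

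The week 5 count depended on its first library, which was picked out from these same values. Replicate 1 of week 5 was the highest of its group for all 10 genes and the highest of all 25 libraries for 8, the exceptions being Egr1 and Ier2. Without it only Ier3 was called at week 5. Leaving out replicate 3 of the normal diet instead gave larger edgeR changes for Fos (1.44 ± 0.51, adjusted p = 0.0363) and Fosb (2.91 ± 0.77, 0.00694). Jun (0.95 ± 0.24, 0.00361) and Junb (1.00 ± 0.23, 0.00221) moved the same way. Both left-out libraries stood above their group means for all 10 genes, so the direction of each shift was fixed beforehand. Without normal-diet libraries 1 and 5, which were lowest in markers of other liver cells, Junb and Ier3 were called. The markers of other cells moved with the same contrast: at week 5, 10 of 10 Kupffer cell, 10 of 10 sinusoidal endothelial, 9 of 10 stellate and 8 of 8 monocyte and dendritic markers were called higher. The Kupffer markers summed to between 108.9 and 590.2 CPM on normal diet and between 1644 and 1783 CPM at week 5. The endothelial markers summed to between 140.2 and 503.5 CPM and then between 1119 and 1304 CPM, and the stellate markers to between 68.15 and 135.3 CPM and then between 421.2 and 866.7 CPM. Of 10 hepatocyte markers 5 were called lower, and their sum lay between 89118 and 100181 CPM on normal diet and between 67371 and 75136 CPM at week 5. With the 30-marker score as a further term, none of the 10 genes was called in any week by edgeR (0 at weeks 5 and 6 had an unadjusted p under 0.05, and 1 each at weeks 3 and 4), and only 11 genes of the whole table were called at week 5 against 4197 without the term. The Ier3 change was then 0.49 ± 0.50 at week 5 (adjusted p = 0.870) and 0.04 ± 0.49 at week 6. Score and diet time are largely aligned, so the 2 cannot be told apart at weeks 5 and 6.

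**Figure D3:**
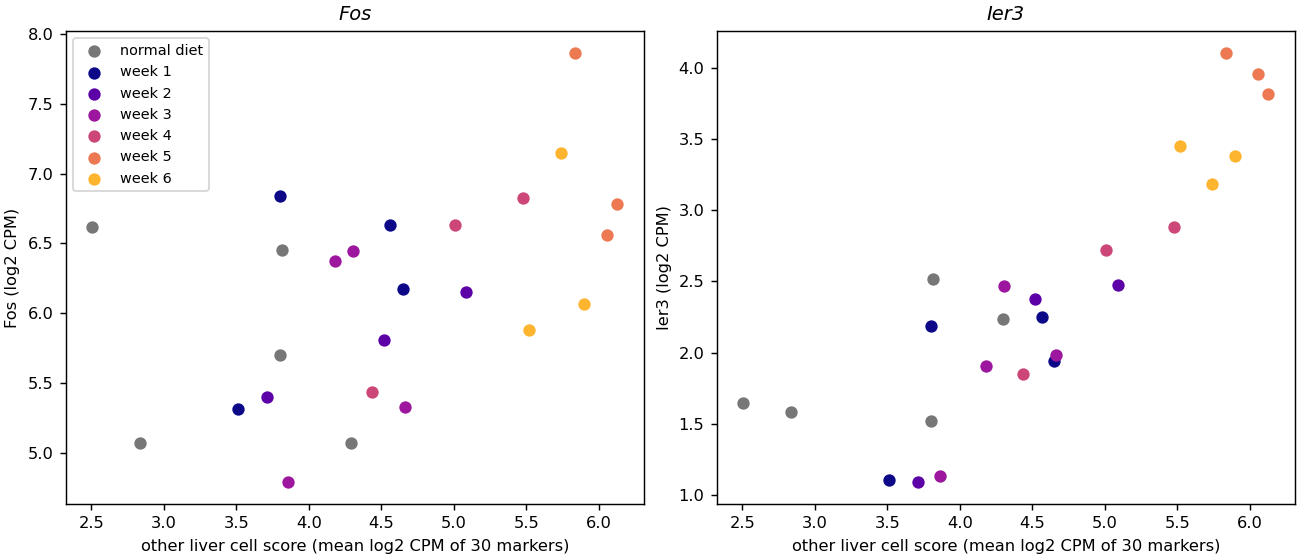
Log2 CPM of Fos (left) and Ier3 (right) against the mean log2 CPM of 30 markers of other liver cells, 1 point per library, coloured by diet group. Week 5 libraries lie at scores of 5.836 to 6.127 and normal-diet libraries at 2.507 to 4.294. Ier3 is highest in the week 5 libraries, though not in the order of their scores, and Fos scatters widely at every score.

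Inside the groups the genes moved together. After the group mean of log2 CPM was removed, 42 of the 45 pairs were correlated over the 25 libraries (permutation within groups, 100000 resamples, two-sided, Benjamini-Hochberg over 45 pairs), all of them positively. Pearson's r ran from 0.33 to 0.92 with a median of 0.68, and 40 pairs were called by Spearman's rho. The closest pairs were Fos with Fosb (r = 0.92, rho = 0.90) and Jun with Atf3 (r = 0.92, rho = 0.91). Both had the smallest p that these permutations can give, 1.0e-05 (adjusted p = 1.5e-04), and r was 0.92 and 0.90 without the 2 libraries farthest from the median. Ier3 was closest to Dusp1 (r = 0.81, rho = 0.76, adjusted permutation p = 0.00139). The pairs not called were Jund with Ier2 (r = 0.42, adjusted permutation p = 0.0913), Egr1 with Ier3 (r = 0.45, 0.0530) and Egr1 with Dusp1 (r = 0.33, 0.144). Both genes of a pair were read from the same libraries and share their depth, sorting and RNA.

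**Figure D4:**
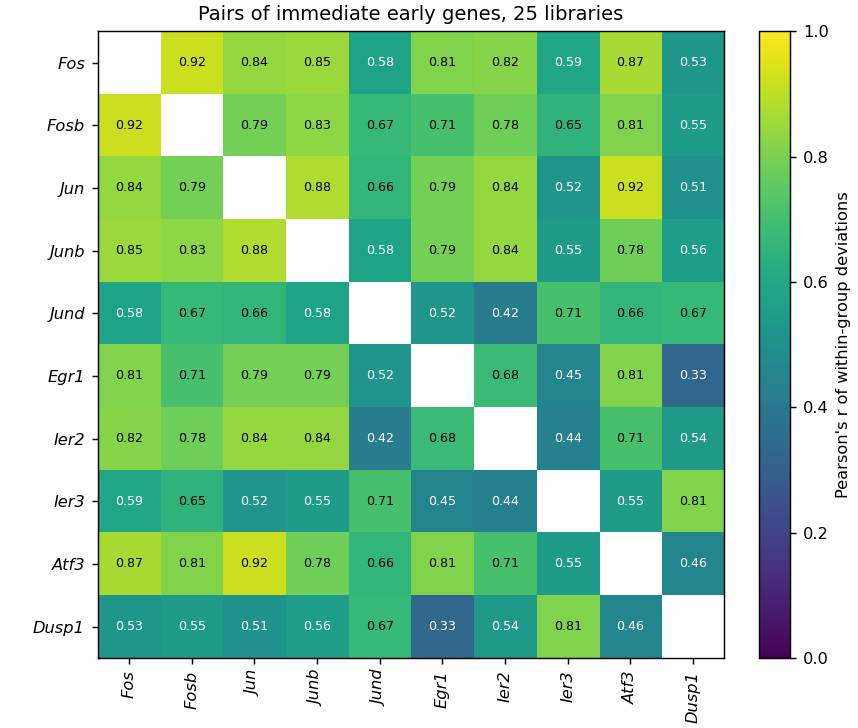
Pearson's r between the 10 genes over 25 libraries, computed on deviations of log2 CPM from the group mean. Values run from 0.33 (Egr1 with Dusp1) to 0.92 (Fos with Fosb, Jun with Atf3), and the medians for Ier3 (0.55) and Dusp1 (0.54) are the lowest of the 10 genes.

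Single libraries were high or low for nearly all 10 genes. Replicate 3 of the normal diet was above its group mean for 10 of 10 genes and the highest of its group for 8. Replicate 2 of week 1 was the lowest of its group for 9, replicate 1 of week 3 for 9 and replicate 3 of week 4 for 10. Fosb shows the reach of this: 2.168 CPM in replicate 2 of week 1 beside 19.4 CPM in replicate 4 of that week. None of 30 relations of the genes with other library measures was called after adjustment. The within-group r lay between -0.03 and 0.68 with the score of other liver cells (Ier3 the highest, adjusted permutation p = 0.0774). Without the 2 libraries whose score deviated farthest from the median, it lay between 0.24 (Atf3) and 0.70 (Ier3), which was not tested. With the mean deviation of the 10 genes, sinusoidal endothelial markers had a median r of 0.36, stellate markers 0.28 and Kupffer markers 0.14. The median over all tested genes outside the 10 was 0.02. With log2 total counts, r of the 10 genes lay between -0.11 and 0.62 (Dusp1 the highest). With the mitochondrial percent it lay between -0.30 and 0.18.

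**Figure D5:**
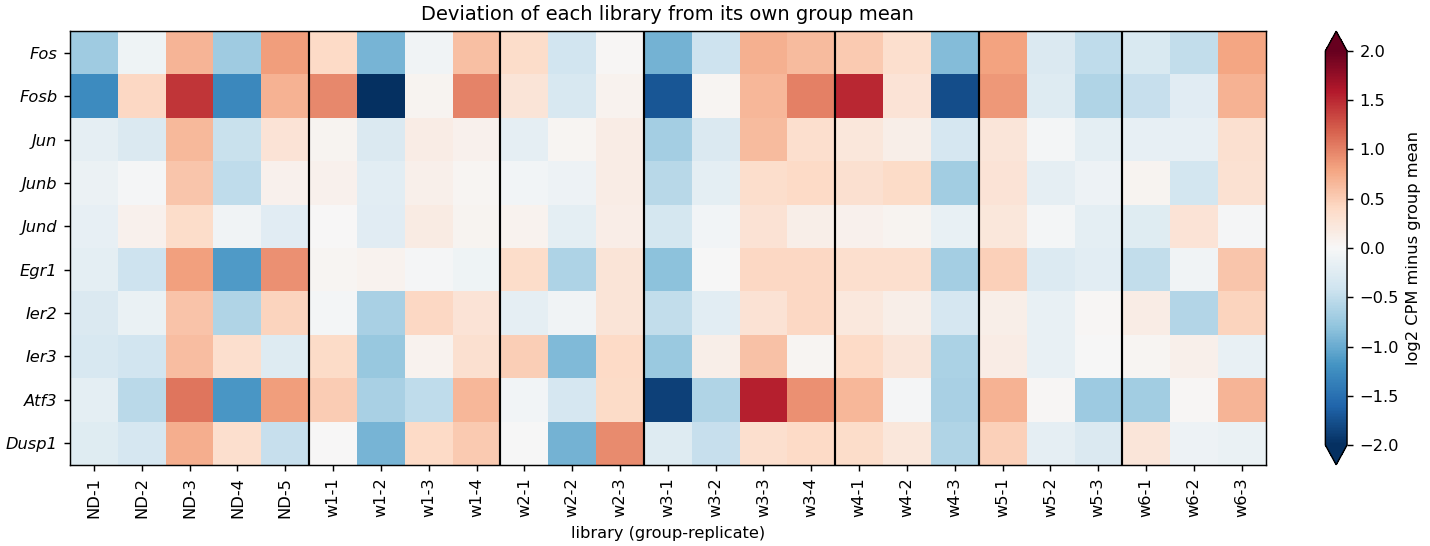
Deviation of log2 CPM from the group mean (colour, red above and blue below) for the 10 genes in each library; lines part the groups. Columns tend to be of 1 colour: replicate 3 of the normal diet is red for all 10 genes and replicate 3 of week 4 is blue for all 10.

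The SD within groups on the log2 scale was 1.152 for Fosb, 0.9158 for Atf3 and 0.7012 for Fos, larger than in 99.73%, 98.81% and 92.54% of tested genes. It was 0.2173 for Jund, larger than in 28.03%, and the median over all tested genes was 0.3002. Group membership took up 75.88% of the variance of log2 CPM for Ier3 and 52.49% for Junb. For Egr1, Ier2 and Atf3 it took up 22.66%, 22.13% and 13.63%, against a median of 40.74% over all tested genes. With 7 small groups such a share lies well above 0 even where groups do not differ. The edgeR test of any difference among the groups called none of these 3 (adjusted p = 0.542, 0.606 and 0.776).

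Other genes of the same response were taken from lists chosen by function. Of 28 tested further immediate early genes, 16 were called higher at week 5 and 13 at week 6, and none lower, beside 19.1% and 16.3% of all tested genes called higher. Their median change at week 5 was 1.33, against -0.05 over all genes. The Kupffer, endothelial and stellate markers rose in the same contrasts, and their part in these changes was not tested. Klf4, a zinc finger factor, rose from 5.105 ± 2.82 CPM (n = 5) to 39.51 ± 13.52 CPM (n = 3) at week 5, a log2 change of 2.91 ± 0.43 (adjusted p = 4.1e-05). Klf6, of the same family, rose by 1.91 ± 0.25 (adjusted p = 1.2e-05). Ier5 rose by 1.85 ± 0.25 (adjusted p = 1.1e-05), and Rhob, a small GTPase, by 2.10 ± 0.31 (adjusted p = 3.9e-05). All 4 passed at week 6 as well.

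Of 11 tested AP-1 partners, 8 were called higher at week 5, 5 at week 6 and none lower, beside 19.1% and 16.3% of all tested genes called higher. Maf, a large Maf factor that is also abundant in macrophages and sinusoidal endothelium, rose from 147.6 ± 57.92 CPM (n = 5) to 614.6 ± 45.96 CPM (n = 3), a change of 2.06 ± 0.26 (adjusted p = 1.1e-05). Batf3 rose by 1.86 ± 0.46 (adjusted p = 0.00266), Jdp2 by 2.87 ± 0.61 (adjusted p = 6.8e-04) and Batf2 by 1.79 ± 0.61 (adjusted p = 0.0252), each from about 1 CPM or less on normal diet. The markers of other liver cells rose in the same contrast, as given above, and their part in these changes was not tested.

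Of 28 genes of the MAP kinase cascade and SRF factors, 8 were called higher and 4 lower at week 5, beside 19.1% and 16.3% of all tested genes. At week 6, 4 were called higher and 2 lower, beside 16.3% and 10.5%. The markers of other liver cells rose in the same contrasts, and their part in these changes was not tested. Egfr, a growth factor receptor of hepatocytes, fell from 564 ± 165.1 CPM (n = 5) to 200.4 ± 26.22 CPM (n = 3), a log2 change of -1.49 ± 0.32 (adjusted p = 9.3e-04). Met, the receptor of hepatocyte growth factor, changed by -0.44 ± 0.11 (adjusted p = 0.00295). Elk3, a partner of SRF, rose by 2.54 ± 0.30 (adjusted p = 3.4e-06), and Mapk3, the kinase ERK1, by 0.62 ± 0.12 (adjusted p = 2.6e-04).

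Of 13 genes of MAP kinase feedback, 7 were called higher and 1 lower at week 5, and 5 higher and none lower at week 6; of all tested genes 19.1% were called higher and 16.3% lower at week 5 and 16.3% higher at week 6. The markers of other liver cells rose here too, and their part was not tested. The phosphatase Dusp2 rose by 4.02 ± 0.58 (adjusted p = 2.0e-05), from 0.4151 ± 0.2137 CPM (n = 5) to 6.823 ± 2.057 CPM (n = 3). Dusp7 rose by 1.68 ± 0.27 (adjusted p = 4.7e-05), and the inhibitors Spry2 and Spry1 by 1.80 ± 0.47 (adjusted p = 0.00424) and 2.56 ± 0.52 (adjusted p = 4.9e-04).

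Of 12 heat shock genes, 2 were called higher and 2 lower at week 5, beside 19.1% and 16.3% of all tested genes. None was called higher and 2 lower at week 6, beside 16.3% and 10.5% of all tested genes. In the trend over weeks 1 to 6 none was called higher and 6 lower. Of all 11869 tested genes, 18.9% were called higher and 1774 genes lower in this trend. The mitochondrial chaperones Hspe1 and Hspd1 fell, by 0.58 and 0.61 on the log2 scale (adjusted p = 4.7e-05 and 7.2e-05), and Dnajb1 rose by 0.64 ± 0.21 (adjusted p = 0.0179). Hspa1a rose by 2.67 ± 0.68 (adjusted p = 0.00349) from 0.6392 CPM, a value that is uncertain because its near-identical copy Hspa1b can share reads. Of 9 genes of the integrated stress response, 3 were called higher and 2 lower at week 5, beside 19.1% and 16.3% of all tested genes. The markers of other liver cells rose in this contrast too, and their part was not tested. Ppp1r15a, which restores translation, rose by 1.58 ± 0.40 (adjusted p = 0.00456), Fgf21 by 2.10 ± 0.62 (adjusted p = 0.0102) and Ddit3 by 1.05 ± 0.27 (adjusted p = 0.00320), while Asns fell by 1.93 (adjusted p = 0.0358).

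Genes that varied like the 10 inside the groups were found in several of the lists and outside them. With the mean deviation of the 10 genes, 10 of 28 further immediate early genes had r over 0.5 (35.7%), as had 3 of 13 feedback genes, 1 of 12 heat shock genes, none of 11 AP-1 partners and none of 28 cascade genes, against 311 (2.62%) of 11859 tested genes outside the 10. Among 6200 candidates averaging 10 CPM or more, over 25 libraries, Btg2, an antiproliferative early response gene, was the most alike in level (r = 0.867) and in deviation (r = 0.91). It was followed in level by Ppp1r15a (0.791), Tcf7l1 (0.762), Zfp36 (0.727), Calm2 (0.727) and Tmod3 (0.726), and in deviation by Frmd4b (0.763), Aacs (0.76), Slc20a1 (0.752), Gadd45a (0.744) and Oxnad1 (0.732). These correlations describe 25 libraries that share depth and isolation.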

How the data were processed

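Hepatocytes were pelleted and sorted, and polyadenylated RNA was sequenced with the QuantSeq 3′ FWD kit, per the labels' protocols. Such tags give about 1 read per transcript, so counts do not scale with gene length. The deposited values are raw counts per gene symbol, made by the authors with FastQC, cutadapt and STAR 2.7.1a on build GRCm39, per the submitters' processing notes. The sources used here do not name the counting tool, annotation or strand setting.

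The 10 genes, the gene lists and the tests were chosen with earlier results of these data known. Genes kept by filterByExpr by group (11869 of 37085) were fitted in edgeR 4.0.16 (R 4.3.3) with TMM factors and robust quasi-likelihood tests, in 1 model of 7 groups (18 residual degrees of freedom), and called at an adjusted p under 0.05 over all tested genes. CPM were scaled by TMM; log2 CPM used a prior count of 2. Standard errors were derived from the F statistic. DESeq2 1.42.0, limma 3.58.1 (voom), other scalings and filters, a replicate block, a marker score term and leaving out libraries were alternatives. Named were the 10 genes, up to 4 genes per list with the smallest p over the 7 groups, and the 6 genes most alike by each of 2 measures; genes otherwise mentioned are those counted or those that overlap. The fit was tested on simulated data that gave every gene the same spread, smaller than that of Fosb, Atf3 or Fos. That check therefore does not cover genes as variable as these. Libraries of 1 group were checked for copies and none was found: chi-squared over degrees of freedom was 5.627 to 33.11 in 34 pairs. Replicate numbers did not pair libraries and were not used. Promoters came from RefSeq on GRCm38.p6; overlapping genes came from GENCODE annotation of that build. Figures were drawn with matplotlib 3.10.9 in Python 3.11.15. The count of a gene sets its precision: over all libraries Ier3 had 1190 counts and Jun 42776.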

Additional observations from a re-analysis of the deposited data

Results flagged for a closer look

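The changes along the diet differed between weeks for 3 of the 10 genes, by the test of a linear trend over weeks 1 to 6: Junb rose by 0.12 per week on the log2 scale, Jund by 0.08 and Ier3 by 0.39. Of all tested genes, 18.9% were called higher in this trend. The test of any difference among the 7 groups did not call Jund (edgeR, adjusted p = 0.181). In the groups of 4 or 5 libraries, 30 sets of values were tested for a single library apart from the others and 0 were marked, where chance marks about 1 in 20. The sets share libraries, and the genes varied together, so the sets are not independent. Groups of 3 were not tested, so replicate 1 of week 5 was not covered.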

How the results depend on the processing

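At week 5, 5 genes were called; the count was 7 with scaling by library size only, 6 with DESeq2, 0 with the marker score as a term, 2 without normal-diet libraries 1 and 5, and between 1 and 6 when 1 library was left out (1 without replicate 1 of week 5, 3 without replicate 2). At week 6, 1 was called; it was 2 with scaling by library size only, 0 with the score and 1 to 1 without 1 library. In the trend 3 were called; there were 5 with library size only, 1 with no filter, 0 with the score and 1 to 4 without 1 library (1 without replicate 2 of week 1, replicate 2 of week 2 or replicate 1 of week 5). For any difference 2 were called; there were 5 with library size only, 1 with no filter, 1 with the replicate block, 0 with the score and 1 to 3 without 1 library (1 without replicate 1 or 3 of week 5). Of the 45 pairs, 36 to 45 were called without 1 library.

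With the score, values at week 5 turned to -0.23 for Jund, -0.01 for Ier2 and -0.43 for Dusp1, and at week 6 to -0.20 for Fosb, -0.08 for Junb, -0.25 for Jund and -0.92 for Dusp1; the Dusp1 trend turned to -0.06. At week 6 Ier2 turned to 0.11 with library size only and Dusp1 to 0.00 without normal-diet libraries 1 and 5. The Ier2 trend, 0.00 per week, was 0.04 with library size only, 0.01 with a filter of 5 CPM in 3 libraries, and 0.00 with DESeq2, its size factors or the replicate block. With 1 library left out, the value ran from -0.08 to 0.51 for Egr1 at week 5, from -0.44 to 0.03 for Ier2 and from -0.09 to 0.66 for Atf3 at week 6, and from -0.02 to 0.06 for Egr1 and -0.04 to 0.03 for Ier2 in the trend. None of the turned values had passed the threshold. The cause was not tested. Scaling by library size only shifted the median of all genes from -0.05 to 0.28 at week 5.

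Replicate numbers did not pair the libraries: the correlation of same-numbered pairs had a median of -0.005, from -0.441 to 0.406, and 9 of 25 libraries correlated best with their own number. With the replicate block, 5 genes were called at week 5, 1 at week 6 and 3 in the trend, where Dusp1 passed and Junb did not (adjusted p = 0.0734 in edgeR). The low counts of Ier3 limit its precision.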
